A study of Mus musculus with 24 samples.

Results

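The 10 genes described here encode the enzymes that turn citrate into long-chain saturated and monounsaturated fatty acids in the liver, a glycolytic enzyme that feeds the route, and factors that regulate it: Acly, Acaca, Acacb, Fasn, Elovl6, Scd1, Thrsp, Pklr, Srebf1 and Mlxipl. They were taken by symbol and not by a threshold on measured values, although earlier results of these data were known when the list was made, and are 10 of the 15160 genes in the deposited table, and all 10 passed the filter on low counts. Liver RNA from male mice was read out with QuantSeq, a 3′ method in which each transcript gives a tag near its end. Readings are given as CPM, the count scaled to the size of its library, with no length term. The levels of the 10 genes are compared between mice and not with each other. The study had 24 mice in 4 groups of 6, and the 2 mice that the study set aside (WT_CON_7604 and WT_MR_7612) were not used in the comparisons below, which leaves 22.

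All mice carried loxP sites on both copies of Nfe2l2, the gene for the stress-response transcription factor NRF2. In NRF2 KO mice (NRF2fl/(alb)) 1 copy of Cre under the albumin promoter removed exon 5 in hepatocytes. The study holds it most likely that the Nfe2l2 mRNA left in these livers comes from macrophages. Floxed littermates without Cre (NRF2fl/fl) were the wild type (WT). From 8 weeks of age the mice ate a control diet with 0.86% methionine (Con) or a methionine-restricted diet with 0.17% methionine (MR) for 8 weeks, and neither diet held cysteine. For the mice fed for 8 weeks, the study describes calorimetry and a return to the home cages between those weeks and the collection of tissue. The labels give an age of 5 months, and the food was taken away 4 h before the tissue was collected. Each diet thus had 5 WT and 6 NRF2 KO mice. Their libraries summed to between 6197291 and 22068338 counts, with a median of 15019792, and WT_MR_7615 was the smallest.

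In hepatocytes, surplus sugar is broken down to pyruvate and then citrate, which leaves the mitochondria to be cleaved to acetyl-CoA, carboxylated to malonyl-CoA and joined into palmitate. Elongation and a first double bond then give oleate, the main fatty acid of liver triglyceride. Transcription of this whole route is raised by SREBP-1c, which answers to insulin, and by ChREBP, which answers to sugar. Methionine restriction is known for a lean, insulin-sensitive phenotype and for a liver program that includes Fgf21 and Asns.

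The start sites of 4 of the genes are shown because Acly and Pklr were the members that fell with MR, Thrsp had the largest estimate for the loss of NRF2, in a comparison that is described below with its limits, and Fasn is the gene whose level Acly, Acaca and Acacb tracked most closely. Each run is a 300-base window from RefSeq on build GRCm38.p6, with 250 bases before the annotated start and 50 after it, read 5′ to 3′ on the strand of the gene. Capitals mark CCAAT on either strand, the letters known as the NF-Y box, which often stands near sterol-regulated start sites. The windows are chr11:100527951-100528250 (minus strand) for Acly, chr3:89136373-89136672 (plus strand, the downstream of 2 annotated starts) for Pklr, chr7:97417501-97417800 (minus strand) for Thrsp and chr11:120824498-120824797 (minus strand) for Fasn.
Acly: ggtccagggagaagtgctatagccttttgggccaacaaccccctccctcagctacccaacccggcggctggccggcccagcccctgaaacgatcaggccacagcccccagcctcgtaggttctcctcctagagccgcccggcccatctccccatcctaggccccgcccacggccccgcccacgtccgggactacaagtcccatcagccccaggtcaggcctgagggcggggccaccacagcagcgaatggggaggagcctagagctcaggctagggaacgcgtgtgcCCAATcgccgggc
Pklr: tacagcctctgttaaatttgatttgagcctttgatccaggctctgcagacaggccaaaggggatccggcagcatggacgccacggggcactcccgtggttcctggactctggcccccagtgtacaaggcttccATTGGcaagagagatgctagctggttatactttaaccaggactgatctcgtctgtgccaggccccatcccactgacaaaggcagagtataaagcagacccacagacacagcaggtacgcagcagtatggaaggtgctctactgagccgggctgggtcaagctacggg
Thrsp: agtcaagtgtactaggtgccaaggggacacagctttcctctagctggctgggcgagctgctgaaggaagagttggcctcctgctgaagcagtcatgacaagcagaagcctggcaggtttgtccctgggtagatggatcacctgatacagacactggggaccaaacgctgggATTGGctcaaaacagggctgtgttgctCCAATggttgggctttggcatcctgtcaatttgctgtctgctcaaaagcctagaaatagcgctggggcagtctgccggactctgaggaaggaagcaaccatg
Fasn: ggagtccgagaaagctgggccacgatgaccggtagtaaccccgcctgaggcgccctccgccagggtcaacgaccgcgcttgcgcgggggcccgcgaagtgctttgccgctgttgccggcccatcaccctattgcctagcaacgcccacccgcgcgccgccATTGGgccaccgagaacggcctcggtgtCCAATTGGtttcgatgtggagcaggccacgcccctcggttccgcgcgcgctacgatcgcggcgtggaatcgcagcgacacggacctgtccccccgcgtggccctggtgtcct
In Fasn the box began 90, 62 and 59 bases before the start, and the last pair overlaps on opposite strands. Thrsp held it at 79 and 52 bases before the start and Pklr at 117 bases before it, whereas in Acly it lay 37 bases after the start. Of the 10 genes, 9 had a window in the table, 13 windows in all, and 8 of these 13 windows (from 7 genes) held CCAAT, where 37.4% of all 32851 windows did. The sterol response element was searched as TCACNCCAC on both strands and occurred in 1.24% of all windows, and the E-box CACGTG in 7.15%. Among the members each of these letters was found once, both times at Mlxipl, the gene for ChREBP, but at different annotated starts: the sterol element 136 bases before the downstream start (window chr5:135106641-135106940, plus strand) and the E-box 98 bases before the upstream one (window chr5:135089640-135089939, plus strand). The LXR element, AGGTCA repeated after a gap of 4 letters, was in 0.0152% of all windows and in no member window. Scd1 had no window in the table.

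The deleted gene was examined first. On Con, Nfe2l2 had 158 ± 93.0 CPM in WT and 281 ± 43.9 in NRF2 KO (mean ± SD), and on MR 100.1 ± 4.93 and 226 ± 15.8. The tag count was thus 1.78-fold higher in NRF2 KO mice on Con (adjusted p = 0.045 by the edgeR test described below, a call held in 2 of 22 fits that left out 1 mouse) and 2.26-fold higher on MR (adjusted p = 0.0035). Whether the counted tags lie in the part that Cre removes is not given in the sources used here, so this count does not check the deletion. The study itself measured Nfe2l2 mRNA by PCR with primers on the excised part of exon 5, and reported less of it in NRF2 KO livers. NRF2 target genes bear on the labels. For NRF2 KO against WT over both diets, a comparison described below, Nqo1 changed by -2.02 ± 0.22 log2 and Gsta2 by -2.77 ± 0.27. The library labelled WT_CON_7607 had 324 CPM of Nfe2l2 against 106 to 125 in the other 4 WT Con mice, and 1.59 CPM of Nqo1 against 3.55 to 6.97 in those mice and 0.563 to 1.33 in NRF2 KO Con. Gsta2, a second NRF2 target, was at 3.25 CPM in that library, against 10.3 to 36.4 and 1.85 to 3.45. This library stood with the NRF2 KO mice in Nfe2l2 and Gsta2 and went against its label. The study states, however, that the genotype of every mouse was checked by real time PCR for liver Nfe2l2 mRNA. Without this library the Nfe2l2 difference on Con was 1.27 log2 in place of 0.83 (adjusted p = 6.4e-09, edgeR). The share of all genes called was then 11.1% in place of 13.8% for the diet in WT and 6.32% in place of 5.45% for the genotype over both diets. Calls of the 10 genes that change without this library are given both ways. The diet was visible in every genotype: Asns, the asparagine synthetase that marks amino acid shortage, went from 4.79 to 82.3 CPM in WT and from 4.21 to 60.5 CPM in NRF2 KO, and Fgf21 from 5.96 to 31.1 and from 6.73 to 27.96 CPM.

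On MR the RNA of Acly and Pklr fell: Acly was 36.1% lower and Pklr 40.0% lower when the diet effect was averaged over the genotypes. No member rose. The remaining 8 did not pass the test, and their estimates were spread from -0.74 log2 for Scd1 to 0.24 log2 for Acaca. A gene is said here to rise, fall or be called when its edgeR quasi-likelihood test gave a Benjamini-Hochberg adjusted p under 0.05 over the 13336 genes tested. By that rule 2 of 10 members were called for the averaged diet effect, both downward, beside 27.4% of all genes tested (13.3% upward and 14.1% downward). In NRF2 KO the same 2 of 10 were called, beside 12.6% of all genes (6.23% upward and 6.34% downward), and in WT 0 of 10 were called, beside 13.8% of all genes (6.91% in each direction). That Acly and Pklr passed in one genotype and not in the other does not show a difference between them: no member passed the interaction test of genotype and diet, which called 0.045% of all genes (0.0225% in each direction). With 10 genes, these counts lie near the share of all genes. The median absolute change of the 10 members was 0.61 log2 in WT against 0.19 for all genes, 0.28 against 0.17 in NRF2 KO and 0.55 against 0.16 for the averaged effect, and for the interaction it was 0.12 against 0.15. The members' median SE was also larger than that of all genes, 0.29 against 0.14 in WT, 0.26 against 0.13 in NRF2 KO and 0.20 against 0.10 averaged. In no comparison of 2 groups did a member have ranges free of overlap, which 9.32% of all genes had for the diet in WT, 5.45% for the diet in NRF2 KO, 1.83% for the genotype on Con and 4.6% for the genotype on MR. In whole liver, fewer cells of a type and less RNA per cell cannot be told apart.

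**Figure D1:**
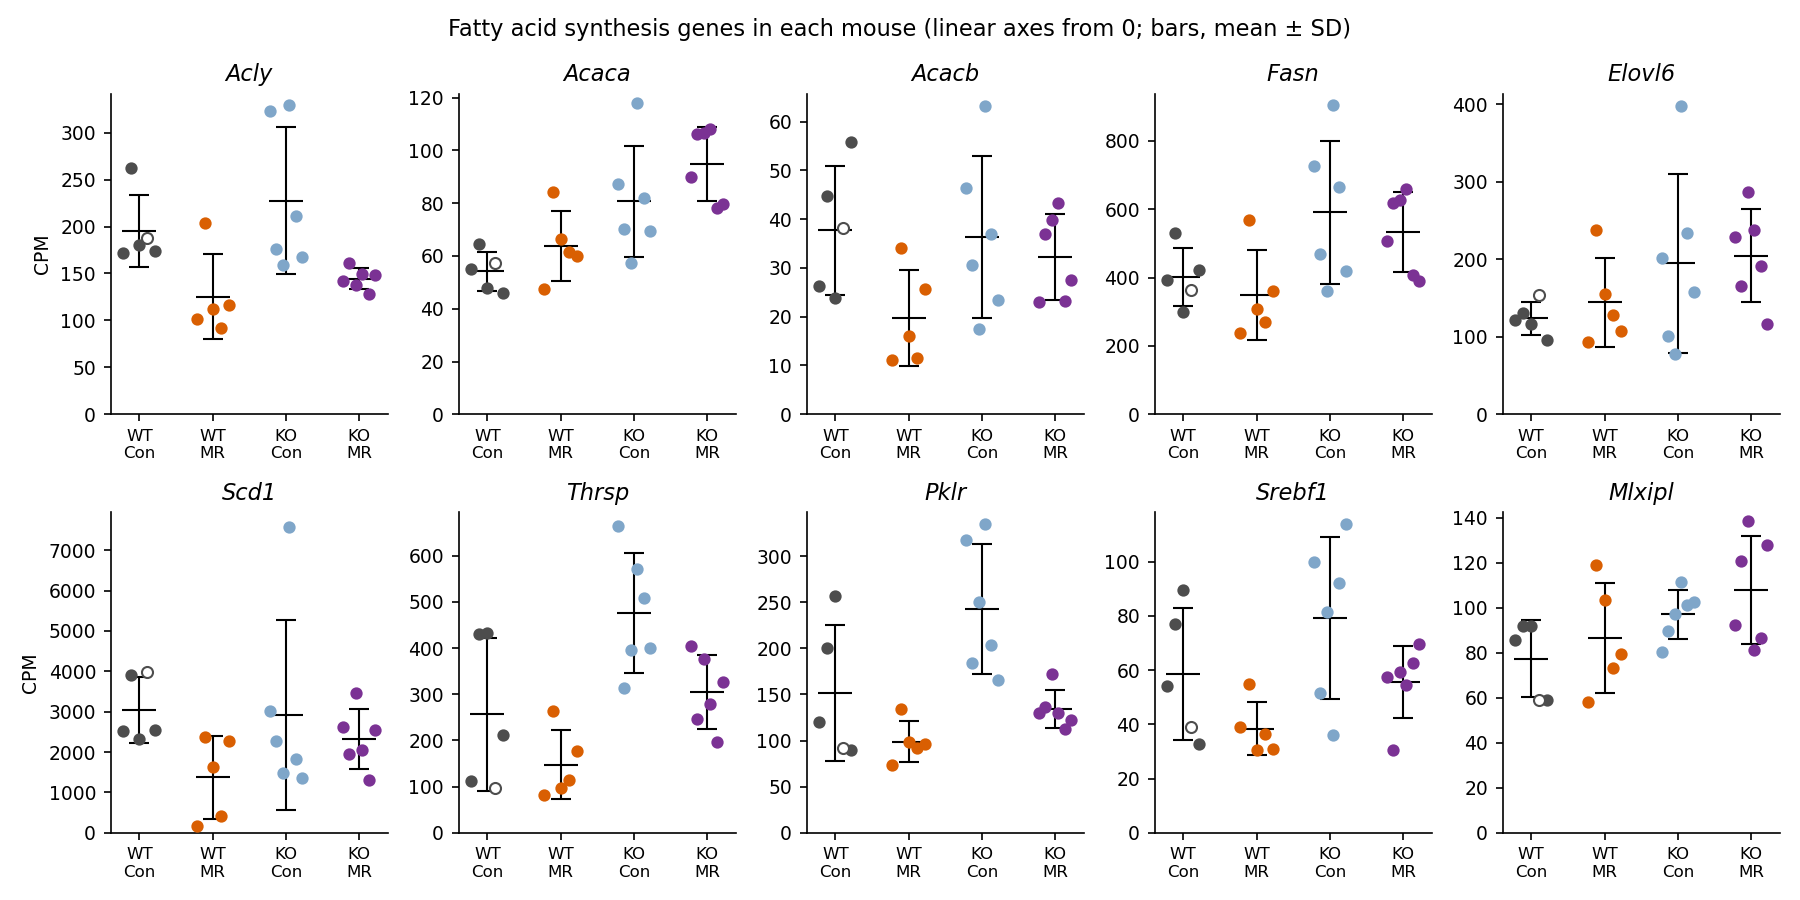
CPM of each of the 10 genes in every mouse (points; y axis from 0, a scale for each gene) for WT and NRF2 KO on each diet, with the mean and SD. The open circle is the library labelled WT_CON_7607. Acly of the NRF2 KO MR mice lies between 128 and 162 CPM with little spread, whereas Scd1 of the WT MR mice runs from 162 to 2384 CPM.

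The spread among mice of 1 group was wide for these genes. The median within-group coefficient of variation was 53.3% for Scd1, 40.3% for Acacb, 39.0% for Thrsp, 34.6% for Elovl6 and 31.6% for Srebf1. It was lowest for Acaca, at 17.9%. Every member varied more than most genes: across the 3536 genes at least as abundant as the least abundant member the median was 9.6%, and from 88.7% (Acaca) to 99.4% (Scd1) of those genes varied less than the member did.

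Acly, ATP citrate lyase, makes the cytosolic acetyl-CoA from which fatty acids and cholesterol are built. Its reading in the 5 WT Con mice was 172, 174, 180, 188 and 262 CPM, and in the 5 WT MR mice 91.4, 102, 112, 117 and 204 CPM. The NRF2 KO mice had a low, median and high of 159, 194 and 329 CPM on Con and 128, 145 and 162 CPM on MR. In WT 4 of 5 MR mice lay below every Con mouse, the exception being WT_MR_7611, in NRF2 KO 5 of 6 did, and both pairs of groups overlapped. The change was -0.64 ± 0.22 log2 in WT (SE; adjusted p = 0.057) and -0.66 ± 0.20 in NRF2 KO (95% interval -1.07 to -0.24; adjusted p = 0.035, edgeR). Averaged over the genotypes it was -0.65 ± 0.15 (adjusted p = 0.0028), and it was called in 22 of 22 fits that left out 1 mouse. The call in NRF2 KO alone held in 15 of those 22, with an adjusted p of up to 0.1, and was lost without any of KO_CON_7617, KO_CON_7621, KO_MR_7625, KO_MR_7628, KO_MR_7629, KO_MR_7631 or KO_MR_7632. For the genotype the estimates of Acly were 0.22 ± 0.21 on Con (interval -0.21 to 0.66) and 0.20 ± 0.21 on MR (-0.23 to 0.64).

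Acaca and Acacb encode the acetyl-CoA carboxylases: the first makes the cytosolic malonyl-CoA used for synthesis, the second sits at the mitochondrial surface, where its product restrains fatty acid import. Acaca was at 46.1, 47.9, 55.1, 57.3 and 64.4 CPM in the WT Con mice and at 47.3, 59.8, 61.4, 66.4 and 84.2 CPM in the WT MR mice. In NRF2 KO the low, median and high were 57.3, 76.2 and 118 CPM on Con and 78.1, 98.1 and 108 CPM on MR. The diet estimates were small and positive, 0.24 ± 0.17 log2 in WT and 0.23 ± 0.15 in NRF2 KO, and neither passed. The order by genotype was plainer: 6 of 6 NRF2 KO mice were above the WT mean on each diet, 5 of 6 were above every WT mouse on Con and 4 of 6 on MR. In WT, Acacb was at 23.8, 26.2, 38.1, 44.7 and 55.8 CPM on Con and at 11.2, 11.6, 16.1, 25.6 and 34.1 CPM on MR. Its estimate there was -0.91 ± 0.36 log2 (interval -1.68 to -0.15; adjusted p = 0.10, edgeR), and without WT_MR_7611 it was -1.22 and passed. In NRF2 KO the Acacb mice had 17.5, 33.7 and 63.1 CPM (low, median, high) on Con and 23.0, 32.2 and 43.2 CPM on MR, with the MR mice inside the range of the Con mice and an estimate of -0.17 ± 0.32. The difference between the 2 diet effects of Acacb was 0.74 ± 0.49 log2 and was not called (adjusted p = 0.77).

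Fasn, fatty acid synthase, strings malonyl-CoA into palmitate. It stood at 300, 364, 392, 423 and 531 CPM in the WT Con mice and at 237, 270, 307, 360 and 568.3 CPM in the WT MR mice. The NRF2 KO mice had a low, median and high of 361, 567 and 904 CPM on Con and 390, 562 and 659 CPM on MR. The diet groups overlapped in both genotypes. In NRF2 KO the MR mice lay inside the range of the Con mice. In WT the MR mice reached both below and above that range, and the highest of the 10 WT mice was an MR mouse, WT_MR_7611. The diet estimates were -0.20 ± 0.26 log2 (interval -0.74 to 0.33) in WT and -0.15 ± 0.23 (-0.63 to 0.34) in NRF2 KO, so that a fall of up to 0.74 log2 in WT is within the interval.

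Elovl6, the elongase that extends palmitate to stearate, was at 96.2, 117, 122, 131 and 154 CPM in the WT Con mice and at 93.1, 107, 129, 155 and 238 CPM in the WT MR mice. In NRF2 KO it spanned 77.7 to 398 CPM on Con (median 179) and 116 to 287 CPM on MR (median 210). The diet estimates were 0.22 ± 0.36 and 0.07 ± 0.33 log2 and neither passed.

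Scd1, the stearoyl-CoA desaturase that makes oleate, was the least even member. The WT Con mice had 2326, 2516, 2537, 3902 and 3972 CPM, and the WT MR mice 162, 424, 1640, 2270 and 2384 CPM. In NRF2 KO the low, median and high were 1350, 2053 and 7578 CPM on Con and 1298, 2298 and 3464 CPM on MR. WT_MR_7609 and WT_MR_7615 were the low WT mice, 4 of 5 WT MR mice lay below every WT Con mouse, and the highest of the WT MR mice lay above the lowest of the WT Con mice. The highest NRF2 KO Con mouse, KO_CON_7621, stood far from the next one, at 3010 CPM. The estimate in WT was -1.15 ± 0.58 log2, a mean 54.9% lower, with an interval from -2.37 to 0.08 (adjusted p = 0.21, edgeR). In NRF2 KO it was -0.33 ± 0.53 (interval -1.43 to 0.77; adjusted p = 0.74). Neither the WT estimate nor the interaction of 0.82 ± 0.78 log2 (interval -0.82 to 2.46; adjusted p = 0.86) passed at this spread. Without KO_CON_7621 the NRF2 KO estimate turned to 0.22 log2.

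Thrsp, also called Spot 14, is a small nuclear and cytosolic protein that follows lipogenic stimuli and acts with the carboxylases. Its WT Con readings were 96.1, 111, 211, 431 and 433 CPM and its WT MR readings 81.9, 97.5, 115, 177 and 264 CPM. The NRF2 KO mice had a low, median and high of 314, 454 and 665 CPM on Con and 198, 302 and 405 CPM on MR. The WT Con mice were spread widely, WT_CON_7607 being the lowest, and the diet groups overlapped in both genotypes. The diet estimates were -0.80 ± 0.40 log2 in WT and -0.64 ± 0.37 in NRF2 KO, and their average of -0.72 ± 0.27 had an adjusted p of 0.057 by edgeR. Without WT_CON_7607 that average was -0.83 and was called (adjusted p = 0.023). It was also called without WT_CON_7602 and without WT_MR_7611.

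Pklr encodes the pyruvate kinase of liver, the last step of glycolysis and a classical ChREBP target. The WT Con mice had 89.9, 92.1, 120, 200 and 257 CPM and the WT MR mice 74.0, 91.7, 96.4, 98.1 and 135 CPM. In NRF2 KO the low, median and high were 166, 227 and 335 CPM on Con and 112, 130 and 173 CPM on MR. In NRF2 KO 5 of 6 MR mice lay below every Con mouse, and in WT 1 of 5 did. Pklr fell in NRF2 KO by 0.86 ± 0.24 on the log2 scale (interval -1.37 to -0.35; adjusted p = 0.025, edgeR), and the estimate in WT was -0.62 ± 0.27 (-1.17 to -0.06; adjusted p = 0.13). Averaged over the genotypes it was -0.74 ± 0.18 (adjusted p = 0.0048) and was called in 22 of 22 fits that left out 1 mouse. In NRF2 KO alone the call was lost without KO_CON_7617, KO_CON_7621, KO_MR_7629 or KO_MR_7631, with an adjusted p of up to 0.067.

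Srebf1, the gene for SREBP-1, was at 32.6, 38.8, 54.1, 77.1 and 89.4 CPM in the WT Con mice and at 30.7, 31.0, 36.4, 38.8 and 54.8 CPM in the WT MR mice. The NRF2 KO mice had a low, median and high of 36.0, 86.8 and 114 CPM on Con and 30.6, 58.3 and 69.5 CPM on MR. All 5 WT MR mice and all 6 NRF2 KO MR mice were below the mean of their Con group, although the groups overlapped. The averaged estimate was -0.55 ± 0.21 log2 (interval -1.0 to -0.11; adjusted p = 0.060, edgeR), and without WT_CON_7607 it was -0.61 and was called (adjusted p = 0.044). It was called as well without WT_CON_7608, WT_MR_7611, KO_CON_7618 or KO_CON_7621. Mlxipl, the gene for ChREBP, was at 59.0 to 91.7 CPM in WT Con, 58.1 to 119 CPM in WT MR, 80.4 to 111 CPM in NRF2 KO Con and 81.1 to 139 CPM in NRF2 KO MR. Its diet estimate in WT, 0.16 ± 0.19 log2, was the smallest of the positive ones there. In NRF2 KO it was 0.15 ± 0.17, and neither passed. The counts of Acaca, Elovl6 and Srebf1 may hold reads of overlapping genes on the other strand (Gm11437, Gm35986 and Rai1). Those genes had totals over the libraries of 537, 3199 and 2422 counts. On the same strand, Gm37391 overlaps Acaca and Gm43072 overlaps Elovl6, with totals of 86 and 177 counts.

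**Figure D2:**
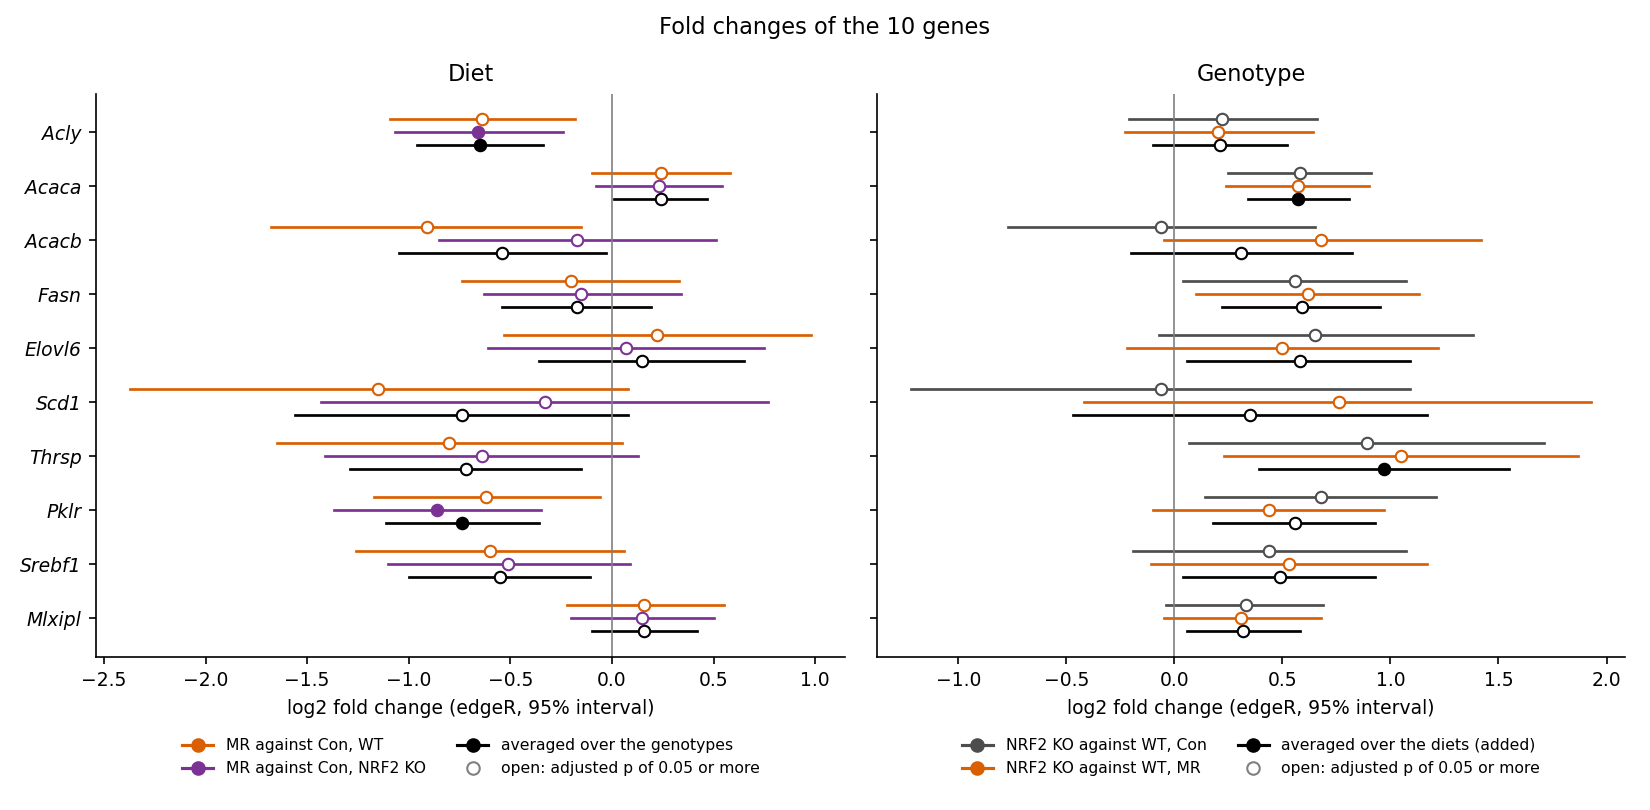
Log2 fold change of each of the 10 genes with its 95% interval (x axes, vertical line at 0), on the left for MR against Con in WT, in NRF2 KO and averaged over the genotypes, and on the right for NRF2 KO against WT on Con, on MR and averaged over the diets. Filled points passed the edgeR test at an adjusted p under 0.05: Acly (-0.66 and -0.65) and Pklr (-0.86 and -0.74) on the left, and on the right Acaca (0.57) and Thrsp (0.97), both in the average over the diets, which was added after the values on each diet were seen.

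The loss of NRF2 in hepatocytes was the second question. On each diet taken alone 0 of 10 members were called between the genotypes, beside 2.07% of all genes on Con (0.802% higher and 1.27% lower) and 1.93% on MR (0.555% higher and 1.38% lower). Of the estimates, 8 of 10 were positive on Con and 10 of 10 on MR, with medians of 0.50 and 0.55 log2, a median SE of 0.28 on each diet (0.14 for all genes) and a median of about 0 for all genes. The members covary within groups, so their signs are not separate observations. Acaca came closest, at 0.58 ± 0.16 log2 on Con (interval 0.25 to 0.91; adjusted p = 0.060, edgeR) and 0.57 ± 0.16 on MR (0.24 to 0.90; adjusted p = 0.063). The genotypes were then compared over both diets. This comparison was added after these values had been seen and rests on the same mice, so its p-values are not independent evidence. In it Acaca was higher in NRF2 KO by 0.57 ± 0.11 log2 (0.34 to 0.81; adjusted p = 0.0026), and the call held in 22 of 22 fits without 1 mouse, over which the estimate ran from 0.50 to 0.63. Thrsp was higher by 0.97 ± 0.28 log2 (0.39 to 1.55; adjusted p = 0.046). That call held in 5 of 22 such fits only, with an adjusted p of up to 0.085, and it was lost without WT_CON_7607, at 0.87 log2 (adjusted p = 0.056). Fasn had an estimate of 0.59 ± 0.17 (adjusted p = 0.054, called in 5 of 22 such fits), Pklr of 0.56 ± 0.18 (adjusted p = 0.080, called in 1 of 22) and the other 6 members of 0.21 to 0.58 log2, none of them called. These 2 of 10 members stand beside 5.45% of all genes called (2.21% upward and 3.24% downward).

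Over both diets 8 of 10 late-phase clock genes were higher in NRF2 KO and 0 lower, and 3 of 5 early-phase genes were lower and 0 higher. Of all genes, 2.21% were higher and 3.24% lower in that comparison. With MR, 6 of the 10 late-phase genes rose and 2 of the 5 early-phase genes fell in WT. The share of all genes there was 6.91% in each direction. In NRF2 KO 1 late-phase gene was up and 1 down, beside 6.23% of all genes upward and 6.34% downward. No clock gene passed the interaction test. A clock score, taken as mean log2 CPM over late-phase genes minus mean log2 CPM over early-phase genes, was 1.98 ± 0.83 in WT and 3.86 ± 0.14 in NRF2 KO on Con, and 3.29 ± 0.53 and 3.96 ± 0.10 on MR. The highest WT Con mouse, at 2.92, was below the lowest NRF2 KO Con mouse, at 3.70, whereas on MR the genotypes overlapped (WT up to 3.9, NRF2 KO from 3.82). With this score as a covariate the difference over both diets was 0.81 log2 for Acaca (adjusted p = 0.070) and 0.53 for Thrsp (adjusted p = 0.69), and 87 genes were called in place of 727. Without the score the estimates were 0.57 and 0.97 log2. Because the score did not overlap between the genotypes on Con, this fit cannot separate the score from the genotype there. Its lost calls therefore do not show a part of the clock in the genotype difference. Acly and Pklr were called for the averaged diet effect with the score as without it. The hour of collection of each mouse is not given in the sources used here, so its part in the genotype and diet differences was not tested. Of 9 hepatocyte markers, 2 were higher in NRF2 KO over both diets, 0 were lower and 7 did not pass. The 2 higher ones were Alb by 0.29 ± 0.07 log2 (adjusted p = 0.017, edgeR) and Apoa1, chosen after its values were seen, by 0.34 ± 0.07 (adjusted p = 0.0015). The summed level of all 9 hepatocyte markers on MR was at most 99653 CPM in WT and at least 100721 CPM in NRF2 KO. On Con the genotypes overlapped in that sum. Of the other cell type markers, 1 of 4 adipocyte markers was higher in NRF2 KO (Adrb3, by 1.55 ± 0.25 log2, edgeR adjusted p = 0.00028), as was 1 of 7 endothelial markers (Stab2, by 0.25 ± 0.05 log2, edgeR adjusted p = 0.0043). Both were named after their values were seen, and none of the others passed. The part of this in the levels of Acaca and Thrsp was not tested.

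The members varied together from mouse to mouse inside the groups. When the group mean was taken off each log2 CPM value and the 45 pairs of members were correlated over the 22 mice, 22 pairs passed a two-sided permutation test with Benjamini-Hochberg adjustment over the 45 pairs, and all 22 correlations were positive (27 pairs passed without WT_CON_7607). The lowest r of a pair that passed was 0.44. Of the 45 pairs, 25 were at or above it, whereas 6.31% of all pairs among the 13336 genes were, and the median r was 0.48 over the member pairs and about 0 over all pairs. Acaca and Fasn were the tightest pair, with r = 0.91 and rho = 0.89 (adjusted permutation p = 2.2e-04), and r = 0.87 without the 2 mice farthest from the median. Acacb and Fasn followed with r = 0.90 and rho = 0.86 (adjusted permutation p = 2.2e-04), then Acaca and Elovl6 with r = 0.86 and rho = 0.80 (adjusted permutation p = 5.6e-04) and Acly and Fasn with r = 0.85 and rho = 0.78 (adjusted permutation p = 5.6e-04). The 6 pairs among Acly, Acaca, Acacb and Fasn ranged from 0.76 to 0.91, and from 0.65 to 0.87 without the 2 farthest mice. Elovl6 and Scd1, the later steps, tracked Fasn at r = 0.77 and 0.69 (0.64 and 0.54 without the 2 farthest mice). By rank, 4 of the 22 pairs did not pass (adjusted permutation p of 0.054 to 0.061), and over the 22 pairs r without the 2 farthest mice was as low as 0.31. The sugar-linked pair, Thrsp and Pklr, had r = 0.78 and rho = 0.70 (adjusted permutation p = 0.0048), and Pklr and Mlxipl r = 0.59 and rho = 0.60 (adjusted permutation p = 0.016).

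Srebf1 stood apart, with 0 of its 9 pairs passing. Their r ran from -0.33 with Acacb to 0.43 with Thrsp (adjusted permutation p = 0.22 and 0.12). The correlation of Srebf1 with Fasn was r = -0.19 and rho = -0.11 (adjusted permutation p = 0.46). Leaving out KO_CON_7621, which had the highest Fasn and a Srebf1 of 36.0 CPM, brought this r to 0.03. The tags of Srebf1 do not separate the SREBP-1a and SREBP-1c transcripts, and the active protein is made by cleavage, which RNA does not measure. The mice that carried the shared movement can be named: WT_MR_7611 was the highest of its group for 10 of 10 members and WT_MR_7609 the lowest for 8, while KO_CON_7621 was the highest of its group for 8. Without WT_MR_7611 the number of pairs that passed was 13, and the 6 enzyme pairs stayed at r of 0.70 or above in all fits without 1 mouse. These 3 libraries held 19334986, 13842976 and 15969545 counts, beside a median of 15019792 over the 22 mice. What set these mice apart, such as when they last ate, was not tested.

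**Figure D3:**
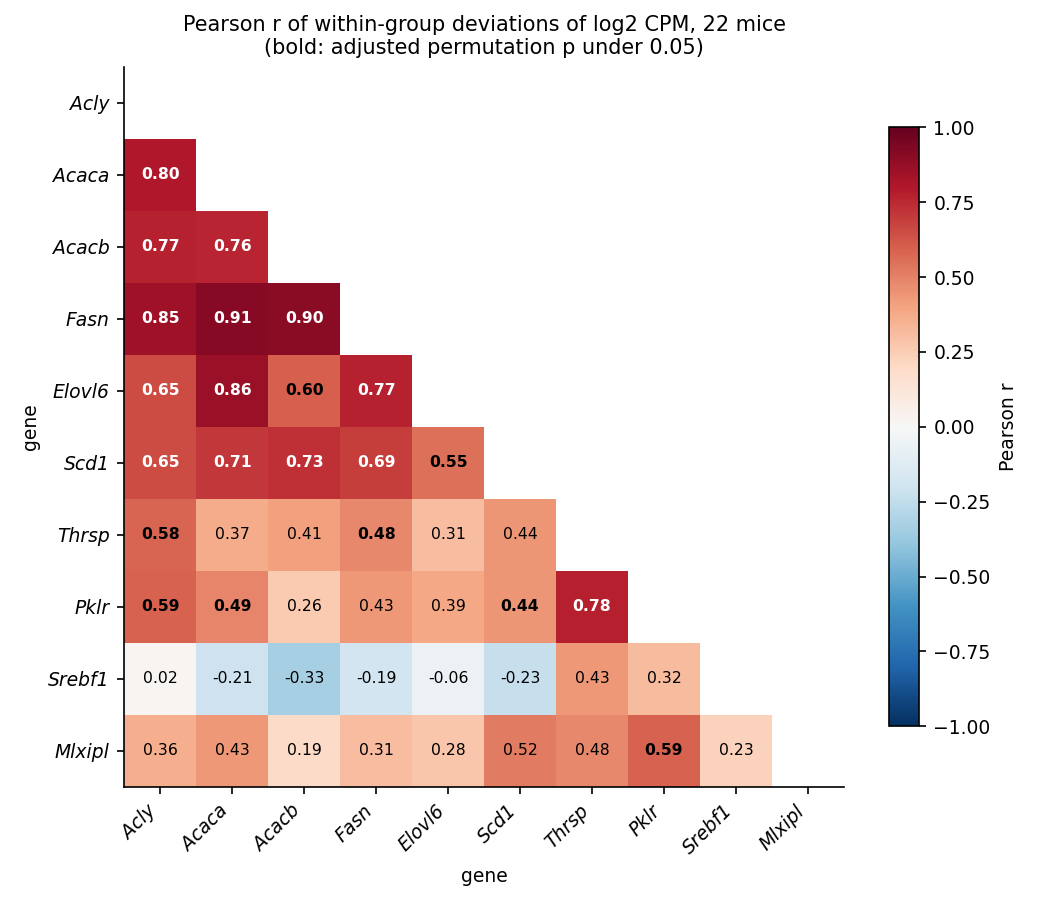
Pearson r of within-group deviations of log2 CPM over 22 mice for each pair of the 10 genes, printed in each cell and coloured from -1 to 1, in bold where the adjusted permutation p was under 0.05. The block of Acly, Acaca, Acacb and Fasn reaches 0.91, and no cell of Srebf1 is in bold.

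**Figure D4:**
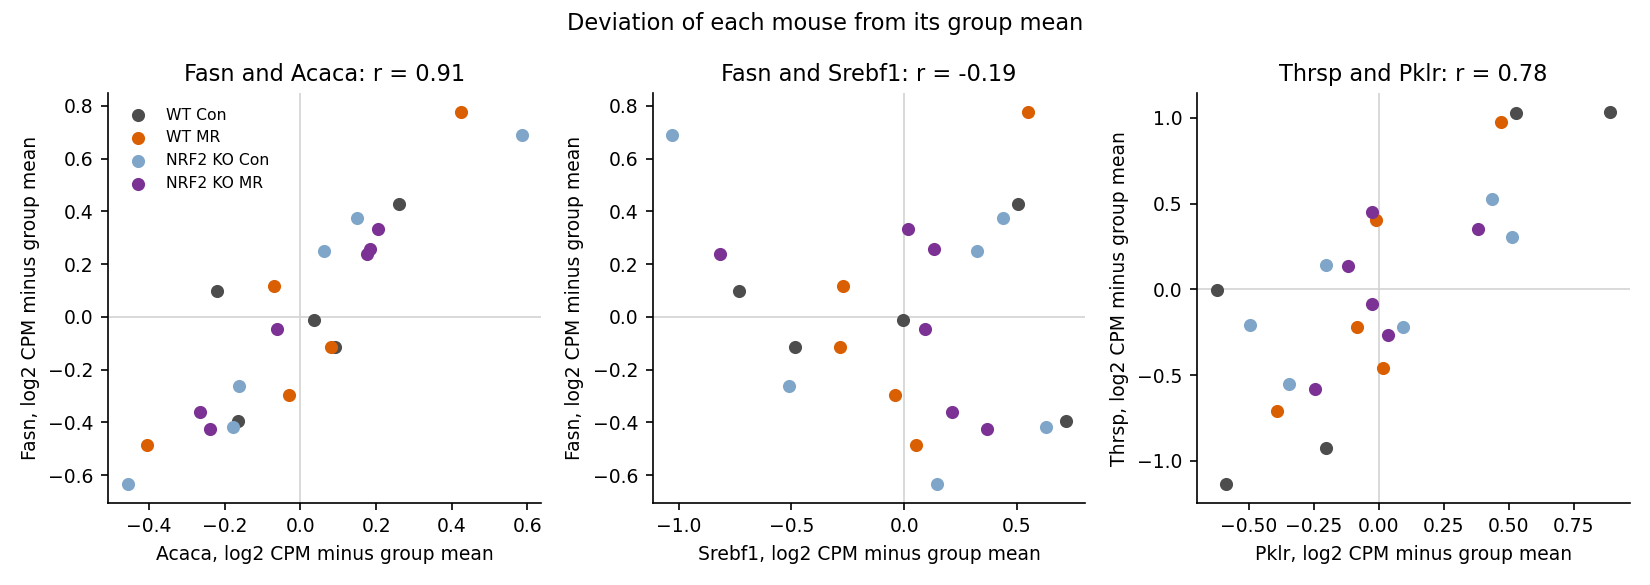
Deviation of each mouse (points, coloured by group) from its group mean in log2 CPM, for Fasn against Acaca, Fasn against Srebf1 and Thrsp against Pklr. Points rise together for Fasn and Acaca (r = 0.91) and for Thrsp and Pklr (r = 0.78), and scatter for Fasn and Srebf1 (r = -0.19), where 1 NRF2 KO Con mouse, KO_CON_7621, lies far to the upper left.

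Among the 13335 other genes tested, Acaca and Acacb had the highest and next highest correlation with Fasn, Acly ranked 4, Elovl6 13 and Scd1 21, while Srebf1 ranked 10606. The 5 genes outside the 10 with the highest correlation, all over the same 22 mice and given as a description, were Chrna4, a nicotinic receptor subunit (r = 0.90), Acss2, which makes cytosolic acetyl-CoA from acetate (0.85), Pdzk1ip1 (0.83), Acsl5, an acyl-CoA synthetase (0.81), and Pmvk, a mevalonate pathway kinase (0.80). Their diet responses were not of 1 kind. For MR averaged over the genotypes Chrna4 fell by 1.53 ± 0.40 and Acsl5 by 0.24 ± 0.08 on the log2 scale, Pmvk rose by 0.54 ± 0.14, and Acss2 and Pdzk1ip1 did not pass.

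Genes beside the route were counted in lists that leave the 10 genes out, to be read beside the 27.4% of all genes called for MR averaged over the genotypes. Of 19 tested elongation and desaturation genes, 7 fell and 6 rose (5 and 7 with library totals alone as the scaling, which moved all genes upward by a median of 0.117 log2). Elovl3, an elongase of very long chains, fell by 2.34 ± 0.51, Elovl5, an elongase of polyunsaturated chains, by 1.01 ± 0.16 and Fads2, the delta-6 desaturase, by 0.80 ± 0.21 on the log2 scale. Elovl5 went from 1226 to 569 CPM in WT and from 1111 to 589 CPM in NRF2 KO, and was called in each genotype. Hacd2, a dehydratase of the elongation cycle, rose by 0.77 ± 0.26, a call held in 11 of 22 fits without 1 mouse.

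Of 12 genes that supply acetyl-CoA and NADPH, 3 rose and 0 fell, among them the pyruvate dehydrogenase subunits Dlat (0.32 ± 0.08 log2) and Pdhb (0.21 ± 0.08). Pdhb was called in 9 of 22 fits without 1 mouse. Around malonyl-CoA, 1 of 6 genes rose and 1 fell: Mlycd, which breaks malonyl-CoA down, by 0.31 ± 0.06 log2, and Mecr, of mitochondrial fatty acid synthesis, by -0.30 ± 0.06. Of 16 genes that activate and esterify fatty acids, 3 rose and 4 fell (5 and 3 with library totals alone). Gpat3, an acyltransferase, rose by 1.45 ± 0.21 log2, from 7.56 to 18.7 CPM in WT and from 4.53 to 13.6 CPM in NRF2 KO, and Acsl3 rose by 0.47 ± 0.12. Agpat2 fell by 0.65 ± 0.11 and Gpam, the mitochondrial acyltransferase that commits acyl-CoA to glycerolipid, by 0.54 ± 0.15 on the log2 scale.

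Among 19 regulators 2 were higher and 2 lower (9 and 1 with library totals alone). Insig2, which holds SREBP in the endoplasmic reticulum, fell from 292 to 96.6 CPM in WT and from 168 to 74.4 CPM in NRF2 KO, by 1.38 ± 0.13 on the log2 scale. The other 3 changed less than Insig2. Ppargc1b, a coactivator of SREBP-1, changed by 0.41 ± 0.11 log2. Nr1h2, the LXR-beta gene, changed by 0.15 ± 0.05 and Creb3l3 by -0.27 ± 0.06. Of 16 sugar genes linked to ChREBP 0 rose and 6 fell, the same direction as Pklr. G6pc, the glucose-6-phosphatase, fell by 1.24 ± 0.20, Khk, the fructokinase, by 0.56 ± 0.16 and Ldha by 0.39 ± 0.08 on the log2 scale. With library totals alone as the scaling, 4 of these 16 fell and 3 rose, and the median of the list went from below to above 0 (0.02 log2).

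Of 23 genes of cholesterol synthesis, which SREBP-2 drives, 15 rose, 0 fell and 8 did not pass, with a list median of 0.54 log2. Idi1, the isomerase of isopentenyl diphosphate, rose by 0.84 ± 0.18 log2 and Cyp51, which demethylates lanosterol, by 0.79 ± 0.17. Of 22 fatty acid oxidation genes under PPAR-alpha, 6 rose and 3 fell (10 and 1 with library totals alone). Cyp4a14 (1.05 ± 0.36 log2), Ehhadh (1.05 ± 0.30) and Acot1 (0.90 ± 0.32) rose, and Fabp1, the fatty acid binding protein, fell by 0.44 ± 0.12 on the log2 scale. The calls of Cyp4a14 and Acot1 held in 15 and 7 of 22 fits without 1 mouse. None of the genes in these 8 lists passed the interaction test. Between the genotypes, 3 of their 133 tested genes were higher in NRF2 KO and 1 lower on Con (Mid1ip1, Lpin1 and Dgat2 against Insig2), 3.01% beside 2.07% of all genes, and 1 was higher and 1 lower on MR (Scap against Tkt), 1.5% beside 1.93%. In the added comparison over both diets 8 of the 133 were higher and 4 lower, 9.02% beside 5.45% of all genes. Among the higher were Pnpla3 (1.34 ± 0.34 log2), Txnip (0.63 ± 0.17), Fads1 (0.42 ± 0.1), Scap (0.28 ± 0.06) and Fabp1 (0.46 ± 0.12). Mid1ip1 (0.60 ± 0.11), which acts with the carboxylases, and Lpin1 (0.62 ± 0.13) and Dgat2 (0.42 ± 0.09) of triglyceride synthesis were higher too. The lower ones were Insig2 (-0.59 ± 0.12), Tkt (-0.60 ± 0.12), Me1 (-0.55 ± 0.16) and Elovl3 (-1.74 ± 0.49).

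**Figure D5:**
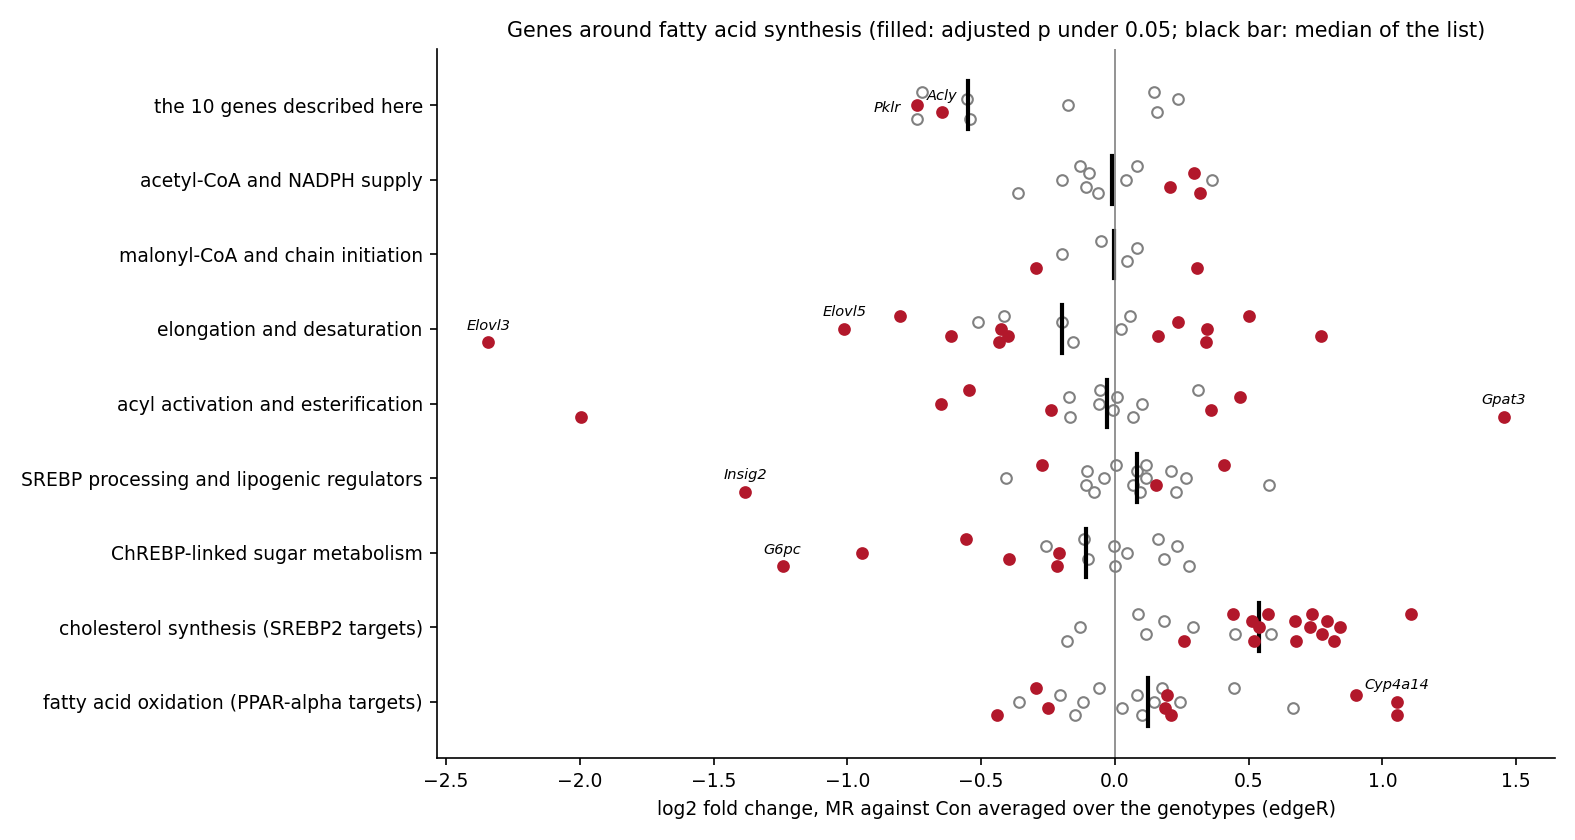
Log2 fold change for MR against Con averaged over the genotypes (x axis) of every gene tested in the 10 members and in 8 lists of neighbouring pathways (rows). Filled points passed the edgeR test at an adjusted p under 0.05 and black bars mark list medians. Cholesterol synthesis has its median at 0.54, and the 10 members at -0.55.

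Markers of other cell types moved with the diet as well. The counts of markers called are for MR averaged over the genotypes. They stand beside 27.4% of all genes called, 13.3% upward and 14.1% downward. The summed level of 10 macrophage markers was 569 CPM on Con and 419 on MR in WT mice, 532 and 442 CPM in NRF2 KO mice, and 7 of 10 fell for the averaged diet effect (the most abundant was Cd5l). Stellate markers went from 603 to 447 and from 563 to 504 CPM, with 6 of 8 lower (Dcn the most abundant). All 4 of the adipocyte markers tested fell, of 11 listed, and their sum went from 26.3 to 13.7 and from 24.1 to 17.7 CPM. Fabp4 led that list, while Lep, Plin1 and Retn, which define fat cells, were not in the table, and nor were Tusc5 and Slc36a2. Bile duct markers went from 30.6 to 13.4 and from 16.5 to 13.1 CPM (3 of 4 lower, Spp1 leading), endothelial markers from 298 to 303 and from 305 to 324 (1 higher, 1 lower of 7, Clec4g leading), B cell markers from 8.78 to 7.41 and from 7.20 to 6.88 (0 of 4 called, Ighm leading) and T and NK cell markers from 4.45 to 3.50 and from 3.83 to 4.39 (0 of 4, Trac leading). Cela1, the 1 pancreatic acinar marker tested, fell by 1.10 ± 0.19 on the log2 scale. The tissue was liver by its markers: all 9 hepatocyte markers were present, Alb at a mean of 72796 CPM, and their sum went from 113806 to 91446 CPM in WT and from 130760 to 113531 CPM in NRF2 KO, with 4 of 9 lower. The part of these shifts in the levels of the 10 genes was not tested.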

How the data were processed

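The authors made 1 QuantSeq 3′ library from the liver of each mouse. Per the labels and the submitters' processing notes, reads were processed with the Lexogen QuantSeq pipeline 2.3.6 against GRCm38 (mm10), and the authors used DESeq2 1.18.1 in R 3.4.3. The deposited table holds raw read counts per gene and a normalized signal, which equals the count divided by a DESeq2 size factor to within a relative 5.1e-15. The strand setting of the counting is not given in the sources used here. No column of samples was left unused. Symbols came from the table (13016 genes) and from GENCODE M21 (15119 in all).

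Raw counts were tested with edgeR 4.0.16 (TMM, filterByExpr, robust quasi-likelihood F-test, R 4.3.3), with 1 mean per group over the 22 mice, and Benjamini-Hochberg adjustment over 13336 genes; 1824 were filtered out. The levels are TMM-scaled CPM, and log2 CPM has a prior count of 2. Comparisons that share a group of mice are not independent. Correlations used 100000 permutations within groups, whose smallest p is 1e-05. The alternatives were DESeq2 1.42.0, limma 3.58.1 on the deposited normalized signal with a pseudocount of 1, DESeq2 size factors or library totals for TMM, no filter or at least 10 counts in every mouse, only the groups compared, all 24 mice with and without quality weights, a clock score as covariate, and leaving out each mouse. Named genes were the 10 members, Nfe2l2, Fgf21 and Asns, and up to 4 called genes per list by size of the averaged diet effect. The 5 genes most correlated with Fasn and the most abundant marker of each cell type were named as well. Nqo1, Gsta2, Apoa1, Adrb3, Stab2, Mid1ip1, Lpin1, Dgat2, Scap, Tkt, Pnpla3, Txnip, Fads1 and Me1 were named after their values were seen. Some genes that the rule names are not reported here. The members and lists were chosen with earlier results of these data known. Over 60 pairs of libraries in a group the lowest chi-square per degree of freedom was 8.32, so the libraries of a group all differed beyond sampling noise. In simulated data made from these libraries the test found 79 of 100 genes changed 2-fold and 53 of 100 changed 1.5-fold in WT (13185 genes), and 81 and 61 of 100 in NRF2 KO (13189 genes), with 2 and 3 false calls. The changed genes were drawn at random from all genes. The 10 members had a larger median SE, 0.29 against 0.14 for all genes in WT and 0.26 against 0.13 in NRF2 KO. These shares thus do not give the chance of finding a change in a member. Figures were drawn with Python 3.11.15 and matplotlib 3.10.9.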

Additional observations from a re-analysis of the deposited data

Results flagged for a closer look

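Single mice stood far from the rest of their group in 20 of 208 groups of values checked, where chance gives about 1 in 20; the measure was the gap to the nearest mouse over the range of the group (Dixon's 95% critical value). Among the 10 genes, Acly was high in WT_CON_7603 at 262.3 CPM (next 187.8) and in WT_MR_7611 at 204.1 CPM (next 116.7), and Scd1 was high in KO_CON_7621 at 7577.6 CPM (next 3010.2). Nfe2l2 was high in WT_CON_7607, at 323.8 CPM against 124.9 in the next WT Con mouse. WT_MR_7611 was also the high mouse for Chrna4 (7.32 CPM, next 2.24) and for the pancreatic marker Cela1 (24, next 20). WT_MR_7609 was high for Fgf21 (68.5 CPM, next 25.1) and Nr1h2 (25.5, next 23.2) and low for Fabp1 (3847.9, next 5448.1). WT_CON_7605 was low for the sterol genes Cyp51 (97.0 CPM, next 217.3) and Pmvk (40.3, next 65.6) and high for Ppargc1b (28.6, next 21). WT_CON_7603 was high for Gpam (17.7 CPM, next 9.53) and Ighm (7.22, next 5.49). Insig2 was high in WT_MR_7613 (127.4 CPM, next 95) and in KO_MR_7631 (91.5, next 74.0), and Hacd2 in KO_CON_7623 (100.8, next 47.6). Low readings were Asns in KO_CON_7620 (1.38 CPM, next 4.27), Pdhb in KO_MR_7629 (129.1, next 142.0) and Idi1 in KO_MR_7632 (4.54, next 8.91). No explanation was tested for these mice.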

How the results depend on the processing

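No paired analysis was possible because each mouse has a number of its own, which no other group shares. The averaged falls of Acly and Pklr kept their direction and call in all 22 fits without 1 mouse. With library totals alone as the scaling, all genes shifted upward by a median of 0.0866 log2 in WT, 0.1522 in NRF2 KO and 0.1169 averaged; under this scaling Acly and Pklr were called lower and Acaca and Mlxipl higher, 4 members in all, each tested against 0 and not against that shift. Genes called in NRF2 KO then numbered 2785 (2397 higher, 388 lower) in place of 1677 (831 and 846), and 2693 with quality weights over all 24 mice. The cause of each change below was not tested. With the clock score as a covariate 1158 genes were called for diet in WT, 7 for genotype on Con, 3 for the interaction, and 87 for genotype over both diets, with 0 members. On Con the score did not overlap between the genotypes, so that fit cannot separate score and genotype there. DESeq2 called 448 genes for genotype on Con, 496 on MR and 35 for the interaction, where edgeR called 276, 258 and 6; with only the groups compared the counts were 99 on Con and 600 on MR, and with quality weights 604 on MR.

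Of the members, 1 (Acly) was called in WT with at least 10 counts in every mouse, by DESeq2 and by limma; 1 (Pklr) in NRF2 KO with library totals and by limma, and 0 with all 24 mice. Acaca, 1 member, was called on Con by DESeq2 and with all 24 mice, and on MR with library totals, by DESeq2, by limma, with only the groups compared and with all 24 mice with and without quality weights. For the averaged diet effect 4 members were called (Acly, Pklr, Srebf1 and Thrsp) with at least 10 counts in every mouse and by DESeq2. For genotype over both diets DESeq2 called 4. With all 24 mice 35 pairs of members covaried, and 15 with library totals.

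Without 1 mouse, members called ran from 0 to 2 in WT and in NRF2 KO, from 0 to 1 for genotype on each diet, from 2 to 5 for the averaged diet effect (5 without WT_MR_7611) and from 1 to 3 for genotype over both diets. Genes called ran from 181 (without WT_CON_7603) to 314 for genotype on Con and from 3 to 12 for the interaction (12 without WT_CON_7607), and covarying pairs from 13 to 28 (28 without WT_CON_7605).

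No called result turned its sign. Interactions that did were Acly (0.05 with library totals, 0.09 by limma, 0.01 with quality weights; -0.14 to 0.23 without 1 mouse), Acaca (0.06, 0.04 and 0.03; -0.10 to 0.13), Fasn (-0.04 with the clock score; -0.05 to 0.31), Elovl6 (0.06 by limma, 0.17 with quality weights; -0.32 to 0.19), Thrsp (-0.09 with quality weights; -0.10 to 0.48), Srebf1 (-0.11 to 0.26) and Mlxipl (0.03 with library totals; -0.13 to 0.13). For MR in NRF2 KO, Fasn was at 0.02 with library totals and -0.25 to 0.02 without 1 mouse, Acacb at -0.32 to 0.06 and Scd1 at -0.48 to 0.22, each turning without KO_CON_7621. Elovl6 was there at -0.09 to 0.41, turning without KO_CON_7618, KO_CON_7620 or KO_MR_7628. Elovl6 in WT ran from -0.03 (without WT_MR_7611) to 0.35. For genotype on Con, Acacb was at 0.11 with all 24 mice and -0.29 to 0.13, and Scd1 at 0.47 with the clock score and -0.62 to 0.09. Acss2, averaged over the genotypes, was at 0.01 with library totals and -0.18 to 0.01.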

Other observations

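The 2 mice that the study set aside were scaled together with the other 22 and give values only. WT_CON_7604 had 73.04 CPM of Acly, 133.4 of Fasn, 40.55 of Pklr and 38.51 of Thrsp, each below every WT Con mouse compared above, and 2329.1 of Scd1 and 66.18 of Srebf1. WT_MR_7612 had 86.87 CPM of Acly, 148.9 of Fasn, 374.2 of Scd1 and 19.17 of Srebf1. Their Nfe2l2 readings were 125.0 and 96.47 CPM.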
